A study of Homo sapiens with 12 samples.

Results

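The genes described here are 40 human genes of mitosis and the spindle: cyclins and kinases that start mitosis, the spindle checkpoint, the kinetochore, spindle motors, the cytokinesis machinery and the proteins that separate sister chromatids. Each gene was read from the brightest probe set that carries its symbol alone, and 39 of the 40 had such a probe set, among 18417 genes measured in this way. CENPA was the exception, since its only probe set is shared with SLC35F6.

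RNA was measured on Affymetrix Human Gene 1.0 ST arrays in subline 1833 of MDA-MB-231, a human breast cancer line, and the subline is known for growing in bone. The control group (3 arrays) has no construct named in its labels, and the shHMGA2 group (3 arrays) carried an HMGA2 shRNA in a pLKO.1 lentivirus and was kept in puromycin at 0.5 μg/ml. The Tet1 group (2 arrays) carried pLVX-TRE3G-Flag-Tet1 and the HOXA9 group (2 arrays) pLVX-TRE3G-HOXA9. Both of these also carried the Tet-On 3G regulator, were selected with puromycin and with G418 at 500 μg/ml, and grew in tetracycline-screened serum in place of the serum of the other groups. The labels call the arrays biological replicates without saying what was repeated, so p-values measure the spread between these arrays. The third deposited Tet1 column and the third HOXA9 column were averages of the first and second and were left out. For Tet1 and HOXA9 the source name gives subline 1834, while the title gives 1833. Of the proteins targeted, HMGA2 binds DNA in chromatin, TET1 oxidises methylated cytosine, and HOXA9 is a transcription factor of the homeobox family. The study asked which genes each of them regulates.

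Cells build most of the mitotic machinery anew in each cycle. Transcription of these genes is held down in G1 by the DREAM complex and switched on in G2 by MYBL2 and FOXM1, through promoter elements called CHR (cell cycle genes homology region) and CCAAT. Many of the proteins are then destroyed as mitosis ends. The RNA level of such genes is high in dividing cell populations and low in resting ones. In a bulk sample, fewer cells in mitosis and less of each RNA per cell cannot be told apart.

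The promoters of the set were searched for these elements. RefSeq promoters on GRCh38.p14, each with 250 bases before the start and 50 from it, were found for 34 of the 40 genes. At least 1 CHR form (TTTGAA, its variant TTTAAA or the rarer form TTCGAA, on either strand) stood in 31 of the 34 promoters, or 91.2%, beside 20.3% of the 14239 array genes with a promoter. CCAAT, on either strand, stood in 28 promoters (82.4%), beside 36.3% of array genes, and both motifs in 25 (73.5%), beside 8.2%. TATAAA was in 3 promoters (8.8%, beside 9% of array genes) and an E2F form (the letters TTCGCGC or the variant TTGGCGC) in 4 (11.8%, beside 7%). These are matches of letters, and binding was not measured.

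The last 100 bases before the start are shown for 6 genes that cover the range of responses: CDC20, CDCA8 and PLK1, which fell in Tet1 and HOXA9, PTTG1, which rose, and KIF4A and ANLN, which were not called. Capitals mark CHR forms and CCAAT on either strand (read on the other strand, TTTGAA appears as the letters TTCAAA, while CCAAT appears as the letters ATTGG). All 6 lie on the plus strand, at chr1:43358881-43358980 (CDC20), chr1:37692416-37692515 (CDCA8), chr16:23678789-23678888 (PLK1), chr5:160421755-160421854 (PTTG1), chrX:70290004-70290103 (KIF4A) and chr7:36389762-36389861 (ANLN).
CDC20: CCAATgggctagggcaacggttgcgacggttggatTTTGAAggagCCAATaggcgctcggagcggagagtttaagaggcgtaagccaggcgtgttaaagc
CDCA8: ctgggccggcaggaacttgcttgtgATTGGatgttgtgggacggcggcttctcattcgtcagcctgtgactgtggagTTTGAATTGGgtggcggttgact
PLK1: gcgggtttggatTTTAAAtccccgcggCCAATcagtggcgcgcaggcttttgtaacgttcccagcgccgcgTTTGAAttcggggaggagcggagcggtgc
PTTG1: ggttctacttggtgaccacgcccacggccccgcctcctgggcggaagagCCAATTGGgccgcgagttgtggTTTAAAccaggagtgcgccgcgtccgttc
KIF4A: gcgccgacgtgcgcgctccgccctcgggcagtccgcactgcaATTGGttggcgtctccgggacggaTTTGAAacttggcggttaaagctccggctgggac
ANLN: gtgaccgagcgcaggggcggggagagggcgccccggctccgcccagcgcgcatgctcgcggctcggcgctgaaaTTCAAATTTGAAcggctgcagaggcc

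The TTTGAA of CDC20 begins 65 bases before the start, and a CCAAT follows it at 55. In CDCA8 the TTTGAA at 23 runs into an ATTGG and shares its last A with it. PTTG1 holds a TTTAAA at 29, and its CCAATTGG is the CCAAT of both strands overlapping. ANLN has the CHR letters on both strands side by side, at 26 and 20, and no CCAAT in the whole window. Genes with both motifs differed in their response: CDC20 fell, PTTG1 rose and KIF4A was not called. NEK2, CCNA2 and AURKB held none of the CHR forms searched in the window. Other forms were not searched, and AURKB, with 2 listed promoters, was read from the first, so these genes may still hold a CHR. The median log2 difference of NEK2, CCNA2 and AURKB between Tet1 and control was -1.19, beside -0.58 over the 30 measured genes with a searched form. For CCAAT the order was the other way, with -0.83 over 27 genes that hold it and -0.38 over 6 that do not. These are descriptions, and no difference was tested.

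The arrays formed 2 sets. Pearson correlations over all probe sets were 0.986 to 0.998 within control and shHMGA2, 0.993 to 0.997 within Tet1 and HOXA9, and 0.945 to 0.966 between them. The median of all probe sets was 7.21 to 7.28 in the first set and 7.66 to 7.71 in the second, so the typical gene reads higher in Tet1 and HOXA9. Array set, serum, selection, a possible other parent subline and construct cannot be told apart in any comparison of Tet1 or HOXA9 with control. TET1 itself read 6.56 ± 0.11 in control (log2, SD, n = 3), 8.97 ± 0.29 in shHMGA2 (n = 3), 7.07 ± 0.13 in Tet1 (n = 2) and 7.3 ± 0.14 in HOXA9 (n = 2). HMGA2 has only a probe set shared with ELAC2. It read 9.56 ± 0.09 in control, 8.81 ± 0.29 in shHMGA2, 10.42 ± 0.01 in Tet1 and 10.41 ± 0 in HOXA9. The gene HOXA9 has no probe set of its own. Of 14 markers of the line, VIM and CD44 read 12.84 and 12.92 in control. SPARC, at 6.04, was the 1 marker below 6.22 there, the 30th percentile of all values. Of the 14, 9 were lower and 0 higher in shHMGA2, and 4 were lower and 7 higher in Tet1 and in HOXA9. Over all genes 12.6% were called lower in shHMGA2, 23.2% in Tet1 and 21.6% in HOXA9. Of 9 luminal breast markers 3 (ESR1, PGR and CDH1) were below 6.22 in control and 6 above it. Markers of other cells were read beside the shares of all genes called higher (13.6% in shHMGA2, 53.9% in Tet1 and 54% in HOXA9). Of 9 fibroblast markers 8 were higher than control in Tet1 and in HOXA9, and 7 in each after quantile normalization. Their mean per array was 6.2 to 6.26 in control, 7.14 to 7.16 in Tet1 and 6.87 to 6.91 in HOXA9. Of 9 HEK293 and kidney markers 5 were higher in shHMGA2 (HOXD10, NEFM, NEFL, CITED1 and WT1). The other 4 were not called, and 3 of the 9 lay below control. HOXD10 differed by 4.47, NEFM by 1.65 and NEFL by 1.17, while the median difference of the 9 was 0.25. The mean of these markers was 6.59 to 6.69 in control arrays and 7.42 to 7.63 in shHMGA2. In Tet1 6 of them were higher and in HOXA9 5, and after quantile normalization 3 and 2. All 5 measured blood markers were higher in Tet1 and in HOXA9, and 1 and 2 after quantile normalization. The part of these cell markers in the results was not tested.

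In Tet1 most mitotic genes were lower than in control. Of the 39, 31 fell, 1 rose (PTTG1) and 7 were not called at a limma adjusted p under 0.05. Over all genes, 23.2% were called lower and 53.9% higher, so the mitotic genes went down on arrays where the typical gene read higher. Their median log2 difference was -0.62, beside 0.25 over all genes, and 38 of the 39 lay below that of the median gene. In 31 of them both Tet1 arrays were below all 3 control arrays, which held for 27.2% of all genes, and in PTTG1 both were above (58.5% of all genes). In HOXA9, 27 of the 39 fell, 1 rose (PTTG1 again) and 11 were not called, beside 21.6% of all genes called lower and 54% higher. The median was -0.43, beside 0.24 over all genes, and in 26 genes both HOXA9 arrays were below all control arrays (25.1% of all genes), and in PTTG1 both were above (57.8%). These comparisons share their control arrays, so they are not independent. All 4 Tet1 and HOXA9 arrays were below all 6 control and shHMGA2 arrays in 24 of the 39 genes, beside 18.9% of all genes, and above them in 1, PTTG1, beside 49.8%.

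Control replicate 1 bears on each comparison with control, since it was the lowest of the 3 controls in all 39 genes. Over all genes, 52.5% were below their group mean in that array. The mean of the other controls exceeded it by 0.05 (FOXM1) to 0.48 (ASPM), with a median of 0.29 on the log2 scale. Without it, 36 genes fell in Tet1 (median -0.67), beside 22.7% of all genes, and 30 in HOXA9 (median -0.5), beside 21.2%. The size of the fall also depends on how the array sets are scaled: after 1 quantile normalization over all arrays 29 genes fell in Tet1 and 24 in HOXA9, and with equal array medians 38 fell in each. Over all genes the called shares were then 33.3% lower and 32.6% higher in Tet1 after quantile normalization, and 51.4% and 21.9% with equal medians. For HOXA9 they were 34% and 29.7%, and 51.1% and 20.3%. After quantile normalization the median difference of the mitotic genes was -0.51 in Tet1, beside 0 over all genes. In HOXA9 it was -0.35, beside -0.02.

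**Figure D1:**
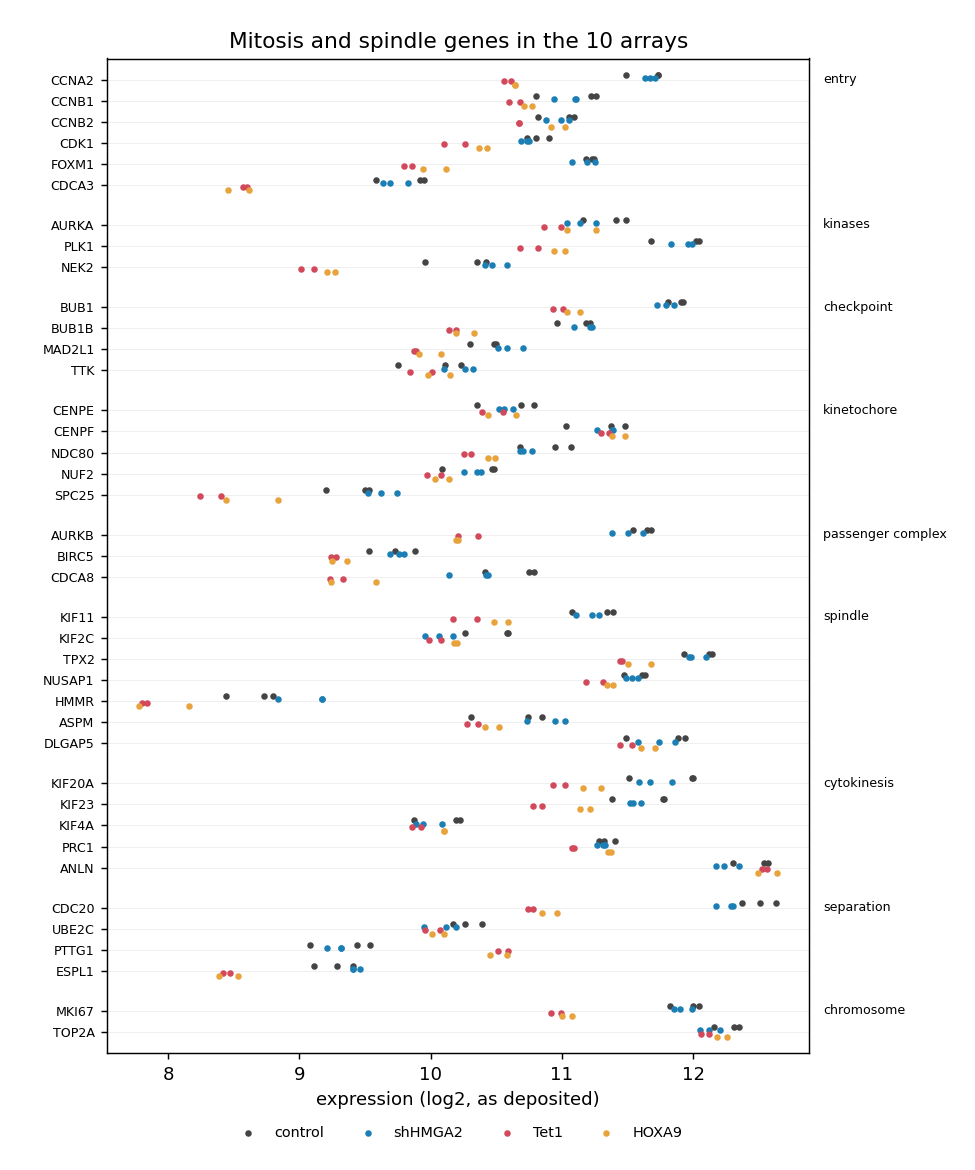
Log2 level of each measured gene in each of the 10 arrays, with genes grouped by role and points coloured by group. In 24 genes the 4 Tet1 and HOXA9 points lie below all 6 control and shHMGA2 points, and in PTTG1 they lie above.

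All 6 genes of mitotic entry fell in Tet1 and 5 in HOXA9, with CCNB2 not called there. FOXM1, the transcription factor that drives G2 and M genes, and CDCA3, an adaptor in the destruction of the mitotic inhibitor WEE1, had the largest differences. FOXM1 read 11.18, 11.24 and 11.23 in control, 11.25, 11.19 and 11.08 in shHMGA2, 9.86 and 9.8 in Tet1, and 9.94 and 10.12 in HOXA9. Its Tet1 and HOXA9 arrays were all below the other 6, with a log2 difference from control of -1.39 in Tet1 (SE 0.07, limma adjusted p = 3.3e-08) and -1.19 in HOXA9 (SE 0.07, limma adjusted p = 1e-07). Log2 differences from control are given below with their sign, Tet1 before HOXA9. CDCA3 read 9.58, 9.92 and 9.95 in control, 9.69, 9.83 and 9.64 in shHMGA2, 8.57 and 8.6 in Tet1, and 8.46 and 8.62 in HOXA9. That is a difference of -1.23 in Tet1 and -1.28 in HOXA9, again without overlap. CCNA2, cyclin A2, fell, at -1.06 in Tet1 and -1.01 in HOXA9 on the log2 scale. CDK1, the kinase that cyclins A and B activate, fell, at -0.63 and -0.41, and CCNB1, cyclin B1, at -0.46 and -0.35. CCNB2 encodes cyclin B2. CCNB2 read 10.82, 11.09 and 11.05 in control, 10.99, 11.05 and 10.88 in shHMGA2, 10.67 and 10.67 in Tet1, and 11.02 and 10.92 in HOXA9. It fell in Tet1 (-0.32, SE 0.08, limma adjusted p = 0.0044), while the HOXA9 arrays overlapped control (95% interval -0.21 to 0.17).

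Of the mitotic kinases, NEK2, which separates centrosomes, and PLK1, which acts at centrosomes, kinetochores and the midzone, fell in both lines. NEK2 read 9.96, 10.35 and 10.42 in control, 10.41, 10.58 and 10.47 in shHMGA2, 9.01 and 9.11 in Tet1, and 9.27 and 9.21 in HOXA9. PLK1 read 11.68, 12.04 and 12.02 in control, 11.96, 11.99 and 11.83 in shHMGA2, 10.82 and 10.68 in Tet1, and 10.94 and 11.02 in HOXA9. Both genes were lower in every Tet1 and HOXA9 array than in any other array. NEK2 fell, at -1.19 in Tet1 (SE 0.11) and -1.01 in HOXA9 (SE 0.11), and PLK1 at -1.16 (SE 0.1) and -0.93 (SE 0.1). AURKA is the Aurora kinase of spindle poles. AURKA read 11.16, 11.41 and 11.49 in control, 11.04, 11.26 and 11.14 in shHMGA2, 10.86 and 10.99 in Tet1, and 11.04 and 11.26 in HOXA9. It fell in Tet1 (-0.43, SE 0.11, limma adjusted p = 0.0029) and was not called in HOXA9 (-0.2, 95% interval -0.43 to 0.03).

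The spindle checkpoint delays anaphase until every kinetochore is attached. Of its 4 genes, 3 fell in each line. BUB1B read 10.96, 11.21 and 11.18 in control, 11.09, 11.23 and 11.21 in shHMGA2, 10.14 and 10.19 in Tet1, and 10.19 and 10.33 in HOXA9. BUB1 read 11.81, 11.92 and 11.91 in control, 11.85, 11.79 and 11.72 in shHMGA2, 10.93 and 11.01 in Tet1, and 11.04 and 11.14 in HOXA9. BUB1B encodes BubR1, part of the complex that inhibits CDC20, and BUB1 is the kinase that recruits it to kinetochores, and both were lower in all 4 arrays of the second set. BUB1B fell, at -0.95 in Tet1 and -0.86 in HOXA9, BUB1 at -0.91 and -0.79, and MAD2L1, the MAD2 subunit of the inhibitor, at -0.54 and -0.43. TTK, the MPS1 kinase at the top of the checkpoint, was the gene not called. TTK read 9.75, 10.11 and 10.23 in control, 10.1, 10.26 and 10.32 in shHMGA2, 9.84 and 10.01 in Tet1, and 9.98 and 10.15 in HOXA9. The arrays of all 4 groups overlapped, and the 95% interval was -0.37 to 0.18 in Tet1 and -0.23 to 0.31 in HOXA9. With equal array medians TTK was called lower in both lines, at -0.57 and -0.41.

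At the kinetochore 3 genes fell in both lines, all subunits of the NDC80 complex, which grips microtubules, and 2 were not called. SPC25 read 9.2, 9.53 and 9.5 in control, 9.52, 9.62 and 9.74 in shHMGA2, 8.24 and 8.4 in Tet1, and 8.44 and 8.84 in HOXA9. NDC80 read 10.68, 10.95 and 11.07 in control, 10.68, 10.77 and 10.7 in shHMGA2, 10.25 and 10.31 in Tet1, and 10.44 and 10.49 in HOXA9. SPC25 fell, at -1.09 in Tet1 and -0.77 in HOXA9, and NDC80 at -0.62 and -0.43, with no overlap with control in either. NUF2, the partner of NDC80, fell, at -0.32 (SE 0.11, limma adjusted p = 0.018) and -0.26 (SE 0.11, limma adjusted p = 0.043), and neither call held after quantile normalization. CENPE is a kinesin that carries chromosomes to the metaphase plate, and CENPF is a large coiled-coil protein. CENPE read 10.35, 10.69 and 10.79 in control, 10.52, 10.56 and 10.63 in shHMGA2, 10.39 and 10.55 in Tet1, and 10.44 and 10.65 in HOXA9. CENPF read 11.03, 11.37 and 11.48 in control, 11.27, 11.38 and 11.39 in shHMGA2, 11.3 and 11.36 in Tet1, and 11.38 and 11.48 in HOXA9. Both genes overlapped control. The 95% intervals for CENPE were -0.39 to 0.12 in Tet1 and -0.32 to 0.19 in HOXA9, and for CENPF -0.2 to 0.27 and -0.1 to 0.37. With equal array medians both were called lower, CENPE at -0.6 in Tet1 and -0.52 in HOXA9 and CENPF at -0.43 and -0.32. The probe set that CENPA, the centromeric histone, shares with SLC35F6 read 10.69 ± 0.34 in control, 10.5 ± 0.09 in shHMGA2, 9.72 ± 0.02 in Tet1 and 9.65 ± 0.03 in HOXA9, and the share of either gene in it is unknown.

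The set holds 3 genes of the chromosomal passenger complex, which corrects wrong attachments and directs cytokinesis, and all 3 fell in both lines. AURKB read 11.54, 11.68 and 11.65 in control, 11.62, 11.5 and 11.38 in shHMGA2, 10.36 and 10.21 in Tet1, and 10.21 and 10.19 in HOXA9. CDCA8 read 10.41, 10.79 and 10.75 in control, 10.42, 10.44 and 10.14 in shHMGA2, 9.33 and 9.23 in Tet1, and 9.24 and 9.58 in HOXA9. AURKB, its kinase, and CDCA8 (borealin) were lower in all 4 Tet1 and HOXA9 arrays than in any other. AURKB fell, at -1.34 in Tet1 (SE 0.08, limma adjusted p = 7.2e-08) and -1.42 in HOXA9 (SE 0.08, limma adjusted p = 5.6e-08). CDCA8 fell, at -1.37 (SE 0.13) and -1.24 (SE 0.13). BIRC5, survivin, fell, at -0.45 and -0.4 on its bright probe set. Its second, dim probe set went the other way, from 5.97 in control to 6.32 in Tet1 and 6.28 in HOXA9.

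Of 7 genes that build or move the spindle, 5 fell in each line. KIF11 read 11.08, 11.34 and 11.39 in control, 11.11, 11.23 and 11.28 in shHMGA2, 10.17 and 10.35 in Tet1, and 10.48 and 10.59 in HOXA9. HMMR read 8.44, 8.73 and 8.8 in control, 8.84, 9.17 and 9.17 in shHMGA2, 7.8 and 7.84 in Tet1, and 7.78 and 8.16 in HOXA9. KIF11 is the kinesin that pushes spindle poles apart, and HMMR is a microtubule-binding protein of the spindle. KIF11 fell, at -1.01 in Tet1 and -0.73 in HOXA9, and HMMR at -0.84 and -0.68. TPX2, which activates AURKA on the spindle, fell, at -0.62 and -0.48, and NUSAP1, a microtubule-bundling protein, at -0.32 and -0.2. KIF2C, a kinesin that takes microtubules apart at centromeres, fell, at -0.44 (SE 0.1, limma adjusted p = 0.0015) and -0.28 (SE 0.1, limma adjusted p = 0.021), the second of which was lost after quantile normalization. The HOXA9 call was also lost without control replicate 2 or 3 or without either HOXA9 array (limma adjusted p = 0.067 to 0.088). ASPM, a spindle pole protein, and DLGAP5, which stabilises kinetochore fibres, were not called. ASPM read 10.31, 10.74 and 10.85 in control, 10.73, 10.95 and 11.02 in shHMGA2, 10.28 and 10.36 in Tet1, and 10.41 and 10.52 in HOXA9. DLGAP5 read 11.49, 11.88 and 11.94 in control, 11.58, 11.86 and 11.74 in shHMGA2, 11.44 and 11.53 in Tet1, and 11.6 and 11.71 in HOXA9. The Tet1 values overlapped control replicate 1, the lowest control, with a limma adjusted p = 0.055 for ASPM and a limma adjusted p = 0.051 for DLGAP5.

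Among 5 cytokinesis genes, KIF20A and KIF23, kinesins of the central spindle, fell in both lines, PRC1, which bundles midzone microtubules, fell in Tet1, and KIF4A and ANLN were not called. KIF20A read 11.51, 11.99 and 12 in control, 11.59, 11.84 and 11.67 in shHMGA2, 10.93 and 11.02 in Tet1, and 11.16 and 11.3 in HOXA9. KIF23 read 11.38, 11.78 and 11.77 in control, 11.52, 11.6 and 11.54 in shHMGA2, 10.78 and 10.85 in Tet1, and 11.14 and 11.21 in HOXA9. KIF20A fell, at -0.86 in Tet1 and -0.61 in HOXA9, and KIF23 at -0.83 and -0.47, without overlap with control. PRC1 read 11.28, 11.32 and 11.4 in control, 11.27, 11.31 and 11.33 in shHMGA2, 11.09 and 11.08 in Tet1, and 11.35 and 11.37 in HOXA9. PRC1 was tight within each group, and a difference of -0.24 was called in Tet1 (SE 0.06, limma adjusted p = 0.0027), and in HOXA9 its 95% interval was -0.1 to 0.16. KIF4A read 9.87, 10.19 and 10.22 in control, 9.89, 10.09 and 9.94 in shHMGA2, 9.86 and 9.93 in Tet1, and 10.1 and 10.1 in HOXA9. KIF4A works with PRC1 at the midzone, and its arrays overlapped. A probe set that KIF4A shares with KIF4B read 7.87 in control, 7.84 in shHMGA2, 8.13 in Tet1 and 8.26 in HOXA9. The share of either gene in it is unknown. ANLN read 12.3, 12.54 and 12.57 in control, 12.23, 12.35 and 12.17 in shHMGA2, 12.52 and 12.56 in Tet1, and 12.49 and 12.64 in HOXA9. ANLN, anillin, is a scaffold of the contractile ring, and its 95% interval was -0.12 to 0.27 in Tet1 and -0.1 to 0.29 in HOXA9. With equal array medians KIF4A (-0.66 in Tet1, -0.45 in HOXA9), PRC1 (-0.71 and -0.43) and ANLN (-0.39 and -0.36) were called lower in both lines.

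The genes that release sister chromatids held both the largest fall and the rise. CDC20 activates the anaphase-promoting complex, which marks securin and cyclin B for destruction. CDC20 read 12.37, 12.63 and 12.51 in control, 12.29, 12.3 and 12.17 in shHMGA2, 10.74 and 10.78 in Tet1, and 10.85 and 10.96 in HOXA9. No Tet1 or HOXA9 array came within a log2 unit of any other array. CDC20 fell, at -1.74 in Tet1, or 3.34-fold lower (SE 0.08, limma adjusted p = 1.4e-08), and at -1.6 in HOXA9, or 3.02-fold lower (SE 0.08, limma adjusted p = 2.8e-08). ESPL1, separase, which cuts cohesin, fell, at -0.83 and -0.82, and UBE2C, the ubiquitin-conjugating enzyme of the complex, at -0.26 (SE 0.09, limma adjusted p = 0.017) and -0.22 (SE 0.09, limma adjusted p = 0.038), calls that were lost after quantile normalization. PTTG1 is securin, the inhibitor of separase. PTTG1 read 9.08, 9.44 and 9.54 in control, 9.32, 9.32 and 9.21 in shHMGA2, 10.59 and 10.51 in Tet1, and 10.58 and 10.45 in HOXA9. All 4 arrays of the second set were above the other 6, and PTTG1 rose by 1.19 in Tet1 (SE 0.11, limma adjusted p = 1.8e-06) and 1.16 in HOXA9 (SE 0.11, limma adjusted p = 2.6e-06). It stayed higher under both other scalings. PTTG1 has near-identical copies, so its value is uncertain to the extent that probes are shared. PTTG2 read 4.6 in control, 4.61 in Tet1 and 4.67 in HOXA9, and PTTG3P read 5.67, 6.5 and 6.61.

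MKI67, the proliferation marker that coats mitotic chromosomes, fell in both lines, and TOP2A, the topoisomerase that untangles them, fell in Tet1. MKI67 read 11.82, 12 and 12.04 in control, 11.85, 11.99 and 11.9 in shHMGA2, 10.92 and 10.99 in Tet1, and 11 and 11.08 in HOXA9. TOP2A read 12.16, 12.31 and 12.35 in control, 12.05, 12.2 and 12.12 in shHMGA2, 12.06 and 12.12 in Tet1, and 12.18 and 12.26 in HOXA9. MKI67 was lower in all 4 arrays, at -1 in Tet1 and -0.91 in HOXA9. The TOP2A difference of -0.18 in Tet1 was near the threshold (SE 0.08, limma adjusted p = 0.044) and was not called without control replicate 2 or 3 or without either Tet1 array (limma adjusted p = 0.082 to 0.2), and in HOXA9 its 95% interval was -0.22 to 0.11.

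**Figure D2:**
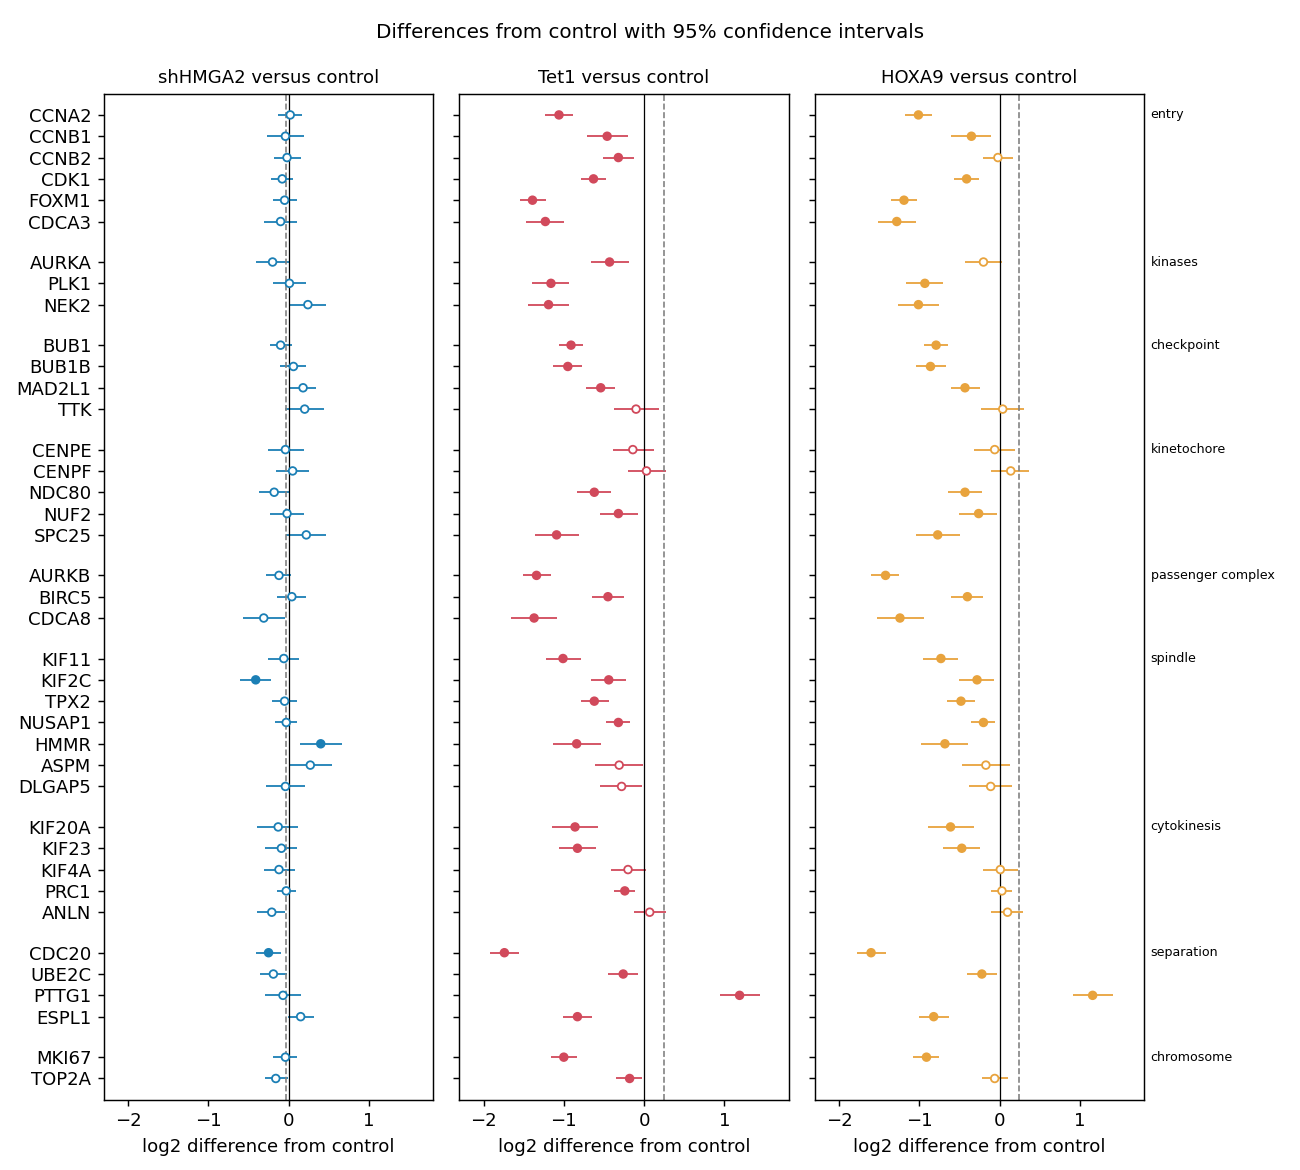
Log2 difference from control of each measured gene in shHMGA2, Tet1 and HOXA9 (panels from left to right), with 95% intervals as whiskers, filled points for genes called at a limma adjusted p under 0.05 and a dashed line at the median gene. In Tet1 and HOXA9 most points lie left of that line and PTTG1 right of it.

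The direct comparison of Tet1 with HOXA9 stays within 1 array set, with the same regulator, serum and selection. No mitotic gene was called at a limma adjusted p under 0.05, beside 0.32% of all genes called lower and 0.114% called higher in Tet1. At an unadjusted p under 0.05, 7 were lower in Tet1 and 0 higher, beside 5.29% and 3.87% of all genes. The differences ran from -0.36 (KIF23, 95% interval -0.61 to -0.12) to 0.09 (AURKB, -0.11 to 0.28). In 36 of 39 genes Tet1 was the lower group, with a median of -0.14 beside 0.01 over all genes, and in 26 both Tet1 arrays lay below both HOXA9 arrays (20.5% of all genes), while AURKB was the 1 gene with both above (20.8%). KIF23, CCNB2 (-0.3, 95% interval -0.5 to -0.1) and PRC1 (-0.27, -0.42 to -0.13) were among those 7. The median was -0.2 without HOXA9 replicate 1 and -0.08 without HOXA9 replicate 2, so 1 array moves its size.

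HMGA2 depletion was compared with control in the same array set. The labels give the lentiviral vector and puromycin for shHMGA2 and neither for control, so vector, selection and shRNA cannot be told apart. Of the 39 genes 2 fell (KIF2C and CDC20) and 1 rose (HMMR), beside 12.6% of all genes called lower and 13.6% called higher, both above the share of mitotic genes. The median was -0.04, beside -0.03 over all genes. In 2 genes all shHMGA2 arrays were below all controls (21.7% of all genes) and in 2 above (18.8%). From the values printed above, KIF2C was lower in every shHMGA2 array than in any control and fell, at -0.41 (SE 0.09, limma adjusted p = 0.005). CDC20 fell, at -0.25 (SE 0.07, limma adjusted p = 0.023), a call lost without control replicate 2 (limma adjusted p = 0.092), control replicate 3 (limma adjusted p = 0.057) or shHMGA2 replicate 3 (limma adjusted p = 0.088). HMMR rose by 0.4 (SE 0.12, limma adjusted p = 0.028), and that call was lost after quantile normalization, at a limma adjusted p = 0.061. It was also lost without control replicate 1 (limma adjusted p = 0.11), shHMGA2 replicate 2 (limma adjusted p = 0.097) or shHMGA2 replicate 3 (limma adjusted p = 0.1). After that normalization 2 genes were lower and 0 higher, beside 14.2% and 12.8% of all genes. MKI67 differed by -0.04 (95% interval -0.19 to 0.11) and FOXM1 by -0.05 (-0.19 to 0.1).

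The counts in this comparison depend on control replicate 1. Without that array 10 genes fell in shHMGA2 (AURKA, NDC80, CDCA8, KIF2C, KIF20A, KIF23, KIF4A, ANLN, CDC20 and TOP2A), 0 rose, and the median was -0.13, beside 10.9% of all genes called lower and 11.7% higher. Without control replicate 2 the counts were 1 and 1, and without control replicate 3 they were 1 lower and 3 higher. Shares of all genes are not given without control replicate 2 or 3, so those counts have no background beside them.

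**Figure D3:**
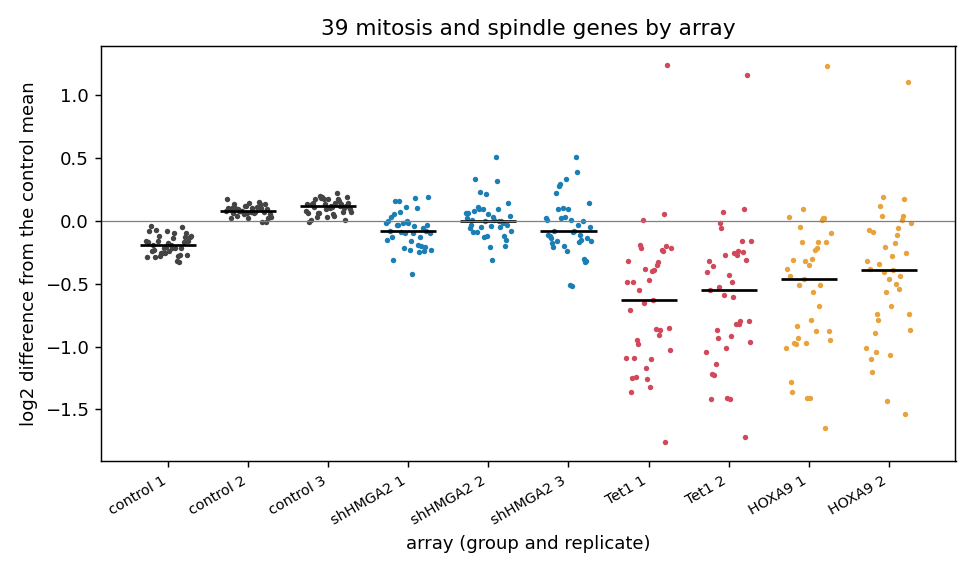
Log2 difference of each of the 39 genes from its control mean, in each of the 10 arrays, with a bar at the median of each array. All 39 points of control replicate 1 lie below 0, and the highest point of each Tet1 and HOXA9 array is PTTG1.

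Genes of the same pathways outside the set were read from lists of their own. Beside their counts stand the shares of all genes, 23.2% lower and 53.9% higher in Tet1 and 21.6% lower and 54% higher in HOXA9. Of 24 other kinetochore genes, 17 fell and 2 rose in Tet1, and 17 fell and 3 rose in HOXA9, rises that were not called with equal array medians. CENPP fell, at -1.16 in Tet1 and -1.03 in HOXA9. Of 17 condensin and cohesin genes, 12 fell and 2 rose in Tet1, and 10 fell and 3 rose in HOXA9, and no rise was called with equal array medians. The largest falls were those of SGO1, the protector of centromeric cohesin (-1.41 and -1.36), and the condensin subunit NCAPH (-1.25 and -1.16). Of 20 other spindle genes, 15 fell in Tet1 and 13 in HOXA9, and NUMA1 was called higher in both and not with equal array medians. The largest fall was that of KIF18B, a kinesin that trims astral microtubules (-1.28 and -1.23). Of 15 genes of the anaphase-promoting complex and its regulators, 9 fell and 5 rose in Tet1, and 8 fell and 5 rose in HOXA9. With equal array medians 1 was higher in Tet1 and 2 in HOXA9. UBE2S, which extends its ubiquitin chains, fell, at -0.89 and -0.86, and the RING subunit ANAPC11 rose by 0.77 and 0.69.

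Regulators upstream of mitosis were read in the same way. Of 9 regulators of mitotic entry 6 fell in each line, among them the phosphatase CDC25A (-1.5 in Tet1 and -1.26 in HOXA9). Of 18 DREAM and E2F genes 13 fell and 2 rose in Tet1, and 12 fell and 3 rose in HOXA9, and no rise was called with equal array medians. E2F8, a repressor of the E2F family, fell, at -1.62 and -1.35, and TFDP1, the partner of E2F proteins, at -1.1 and -1.08. Of 8 G1 cyclins and their kinases 7 fell in each line, with CCND2 (cyclin D2) at -1.69 and -1.85 and CCND1 (cyclin D1) at -0.92 and -0.91. Of 29 DNA replication genes 25 fell in Tet1 and 23 in HOXA9, with LIG1 called higher in both and not with equal array medians. The largest fall was that of CDC6, which loads the helicase (-1.37 and -1.32). Of 7 CDK inhibitors 3 rose in each line, CDKN3 fell in Tet1 and CDKN2A fell in HOXA9, shares no higher than those of all genes. CDKN1A (p21) rose by 0.62 in Tet1 and 0.68 in HOXA9, which was not called with equal array medians, and CDKN2D rose by 0.68 and 0.69.

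In shHMGA2 the same lists held called genes in both directions, beside 13.6% of all genes higher and 12.6% lower. Of 29 DNA replication genes 10 rose and 0 fell, with GINS2, a subunit of the replicative helicase, at 0.42. Of 9 regulators of mitotic entry 1 rose and 1 fell: CDC25A rose by 0.59 (SE 0.07, limma adjusted p = 0.00015) and CDC25B fell, at -0.33. Of 18 DREAM and E2F genes 5 rose and 3 fell. The DREAM subunits RBL2 and LIN9 rose by 0.71 and 0.6, while E2F7 fell, at -0.38, and TFDP1 at -0.23. CDKN2A, the p16 and ARF locus, read 7.4 in control and 9.88 in shHMGA2, a difference of 2.48 (SE 0.14, limma adjusted p = 3.6e-07). Of 7 CDK inhibitors, only it and CDKN2B (0.56) were called higher and 0 lower. HOXD10, NEFM and NEFL were higher in the same arrays, and the source of the CDKN2A signal was not tested. Of 8 G1 cyclin and kinase genes 4 fell, CCND2 at -0.48 and CCND1 at -0.33, and 1 rose, CDK4 by 0.17. At a limma adjusted p under 0.05, 0 of the 15 genes of the anaphase-promoting complex and its regulators were called. At an unadjusted p under 0.05, 5 were higher and 2 lower, beside 17.5% and 18.8% of all genes.

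**Figure D4:**
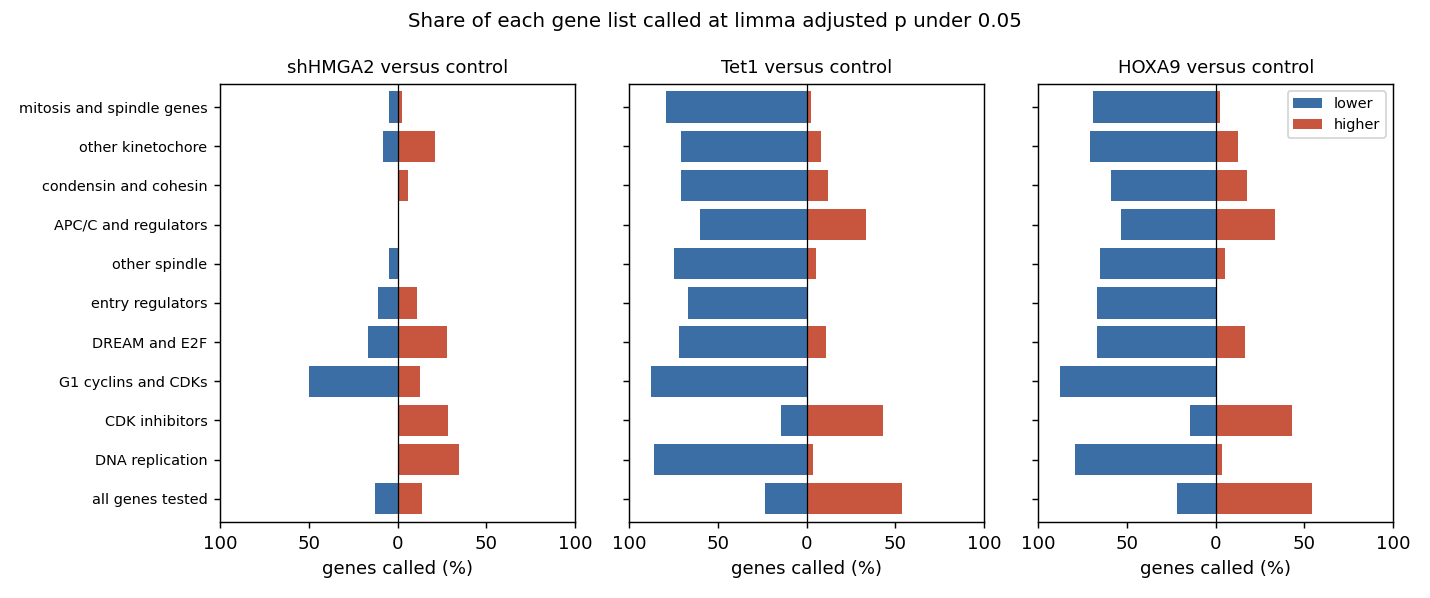
Percent of the measured genes of each list called lower (bars to the left) or higher (bars to the right) than control at a limma adjusted p under 0.05, for each comparison. The lists of mitosis and replication extend mainly to the left in Tet1 and HOXA9.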

How the data were processed

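Expression was measured with 1 array per sample. The values deposited by the authors are log2 expression values. The submitters' processing notes name RMA and R 2.11. Joint or separate normalization of the array sets is not stated there. Of 12 deposited columns, 2 (the third of Tet1 and of HOXA9) equalled the mean of the other replicates of their group within 1e-06 and were left out, which left 10 arrays.

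Of 33297 probe sets, the platform annotation gives 1 symbol to 19460, several to 1754 and lists 12083 not at all. Genes were read from single-symbol probe sets, the brightest for the 769 genes with over 1, which gave 18417 genes. All 4 groups entered 1 limma fit (version 3.58.1, R 4.3.3, functions lmFit then eBayes) with 6 residual degrees of freedom and 5.65 from the prior. Tests were two-sided. Calls use p-values adjusted by Benjamini and Hochberg's method across the 18417 genes, with a threshold of 0.05. The procedure was tested on simulated data. No filter on dim values was applied, and the number of arrays limits the precision.

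The members, role groups and other lists were chosen with earlier results of these data known. Values of every array are printed for the 2 genes per role with the largest mean change in Tet1 and HOXA9, for genes called in shHMGA2 and for genes not called in Tet1 or in HOXA9. Outside the set, up to 2 called genes per list and direction were eligible to be named. Promoters were taken from RefSeq (GRCh38.p14), the first listed per gene. Alternatives were other scalings, a dim filter, mean probe sets, an intensity trend, only the compared groups, all 12 columns, a replicate block and leaving out each array.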

Additional observations from a re-analysis of the deposited data

How the results depend on the processing

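Counts of mitotic genes in shHMGA2 were the least stable. The number called higher was 0 after quantile normalization and 0 to 3 on leaving out 1 array, and the number called lower was 5 with all 12 columns and 1 to 10 on leaving out 1 array. For Tet1 against HOXA9, 4 genes were called lower with all 12 columns, which count averages as arrays, and the median was -0.2 to -0.08 on leaving out 1 array. With equal array medians the median was -1.08 in Tet1 and -0.88 in HOXA9, and these genes changed sign and were called lower: CENPF (-0.43) and ANLN (-0.39) in Tet1, and TTK (-0.41), CENPF (-0.32), KIF4A (-0.45), PRC1 (-0.43) and ANLN (-0.36) in HOXA9. This scaling moves every gene of an array by the same amount, so the sign changes follow from that shift. The cause of the difference in array medians was not tested. On leaving out 1 array, 28 to 36 genes fell in Tet1 and 22 to 30 in HOXA9. Shares of all genes are not given for all 12 columns or for leaving out arrays other than control replicate 1. The counts under those settings therefore have no background beside them. Of the values of single named genes, 7 that were not called changed sign and were then called under settings other than leaving out an array. Under those settings 3 lost and 29 gained their call, and 14 lost and 18 gained it on leaving out an array.

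The replicate numbers were not shown to pair the arrays: correlations of same-numbered deviations were 0.16, 0.14 and 0 between shHMGA2 and control and 0.17 and 0.17 between Tet1 and HOXA9, which have only 2 pairs. Of the shHMGA2 arrays, 2 of 3 correlated best with their own number. With the replicate block 4 genes were called higher and 3 lower in shHMGA2, 33 lower in Tet1 and 26 lower in HOXA9. Shares of all genes with the block are not given, so these counts have no background beside them. The number of arrays limits small differences.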

Other observations

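Control replicate 1 was also low in spindle genes outside the set, with 20 of 20 below their control mean, and in condensin and cohesin genes, with 16 of 17, beside 52.5% of all genes. Of 29 DNA replication genes 17 were below it, with a median deviation of -0.01 on the log2 scale. In the other groups replicate 1 was below the group mean in 28 (shHMGA2), 30 (Tet1) and 32 (HOXA9) of the 39 mitotic genes. Over all genes the shares were 52.3%, 50.6% and 52.3%. Replicate 3 of shHMGA2 was below the mean in 25 of the 39, beside 48.3% of all genes. With 2 arrays each in Tet1 and HOXA9, 1 array mirrors the other.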
